A study of Mus musculus with 24 samples.

Results

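The genes described here are 10 members of the NRF2 pathway in mouse liver: Nfe2l2, Keap1, Nqo1, Txnrd1, Srxn1, G6pdx, Pgd, Taldo1, Ephx1 and Abcc4. They were chosen by name, with earlier results of these data known. Each matched 1 of the 18314 entries of the long RNA count table. All 10 passed the filter on low counts that left 13832 entries to test. The study fed male C57BL/6 mice of wild-type genotype a normal diet (control) or a high-fat diet (HFD) that leads to fatty liver, and gave some HFD mice HQHF, a preparation known here by its code, by gavage after 12 weeks of HFD. The design text names a low, a medium and a high dose with 9 mice per group, but the labels give neither the dose nor the duration of HQHF behind the sequenced livers, and they give no age. Each liver gave 1 library of total RNA with ribosomal RNA removed. The groups compared were control (libraries 1, 3 and 4), HFD (1, 2, 3 and 4) and HFD plus HQHF (1, 2 and 4), written HQHF below. All mice shared genotype and sex, and every HQHF mouse also ate the HFD, so HQHF was not measured on a normal diet.

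NRF2, the product of Nfe2l2, is a transcription factor that switches on genes of antioxidant defence, NADPH supply and detoxification. In unstressed cells KEAP1 binds NRF2 and hands it to a ubiquitin ligase for degradation, and oxidants or electrophiles that modify KEAP1 let NRF2 accumulate and bind antioxidant response elements together with a small MAF protein. Because this control acts on the protein, the mRNA of Nfe2l2 need not move with that of its targets. In liver the products of its target genes make glutathione, reduce quinones and peroxides and export conjugates into blood or bile.

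The promoters of the 5 members that were higher in HFD livers (below) are printed to show where letters of the antioxidant response element lie in them. The windows hold 250 bases before and 50 bases after the start of the gene, on the gene's strand, from RefSeq on build GRCm38.p6, whereas the submitters' notes name GRCm39 for the counts. Capitals mark TGACNNNGC or TGAGNNNGC on either strand. Srxn1 lies at chr2:152105274-152105573 on the plus strand, G6pdx at chrX:74428831-74429130 on the minus strand, and Abcc4 at chr14:118706170-118706469 on the minus strand. Pgd lies at chr4:149166033-149166332 and Nqo1 at chr8:107403156-107403455, both on the minus strand.
Srxn1: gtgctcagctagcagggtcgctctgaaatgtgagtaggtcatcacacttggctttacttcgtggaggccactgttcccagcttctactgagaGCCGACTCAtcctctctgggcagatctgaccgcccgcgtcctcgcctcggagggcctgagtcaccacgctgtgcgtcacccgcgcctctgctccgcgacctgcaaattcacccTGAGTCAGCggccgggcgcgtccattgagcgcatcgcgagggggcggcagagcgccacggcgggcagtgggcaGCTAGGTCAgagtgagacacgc
G6pdx: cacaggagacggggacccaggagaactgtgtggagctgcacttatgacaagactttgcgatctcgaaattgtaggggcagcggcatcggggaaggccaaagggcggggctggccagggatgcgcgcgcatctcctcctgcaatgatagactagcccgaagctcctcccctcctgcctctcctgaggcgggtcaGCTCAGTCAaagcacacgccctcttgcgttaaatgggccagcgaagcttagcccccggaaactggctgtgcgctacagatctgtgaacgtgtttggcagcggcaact
Abcc4: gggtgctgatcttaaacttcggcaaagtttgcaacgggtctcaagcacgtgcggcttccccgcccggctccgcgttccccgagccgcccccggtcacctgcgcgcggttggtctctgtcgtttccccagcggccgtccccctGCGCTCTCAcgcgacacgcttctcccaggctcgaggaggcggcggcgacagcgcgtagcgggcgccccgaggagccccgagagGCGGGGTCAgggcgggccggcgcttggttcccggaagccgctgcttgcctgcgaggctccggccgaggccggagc
Pgd: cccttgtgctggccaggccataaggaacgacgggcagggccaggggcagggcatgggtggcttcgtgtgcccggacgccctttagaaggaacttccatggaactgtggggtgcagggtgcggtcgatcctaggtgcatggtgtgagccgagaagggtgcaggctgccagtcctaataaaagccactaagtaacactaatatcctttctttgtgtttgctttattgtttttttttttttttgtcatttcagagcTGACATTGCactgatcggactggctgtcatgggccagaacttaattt
Nqo1: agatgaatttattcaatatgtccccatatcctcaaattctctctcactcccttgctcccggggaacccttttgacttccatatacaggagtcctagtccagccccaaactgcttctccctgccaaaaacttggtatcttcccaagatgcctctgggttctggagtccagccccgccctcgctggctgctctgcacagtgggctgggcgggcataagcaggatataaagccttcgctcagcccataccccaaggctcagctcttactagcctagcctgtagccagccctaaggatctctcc
Srxn1 held 3 matches, and the one at bases 206 to 214 of its window, TGAGTCAGC, also matched TGANTCAGC, which contains the AP-1 site TGANTCA. G6pdx held TGACTGAGC on the other strand at bases 194 to 202. Pgd held TGACATTGC at bases 254 to 262, which lie after the start, past the 250 bases before it. Abcc4 held 2 matches, TGACCCCGC at bases 226 to 234 and TGAGAGCGC at bases 143 to 151, both on the other strand. Nqo1 held neither set of letters. A second listed promoter of Pgd, at chr4:149166656-149166955 and so upstream of the printed one, held none. A second one of Abcc4 held TGACTCTGC.

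All 10 members had at least 1 listed promoter, 14 in all. TGACNNNGC was found in 6 of the 10 members (Nfe2l2, Txnrd1, Srxn1, G6pdx, Pgd and Abcc4), in 13 of 54 other pathway genes with a promoter, or 24.1%, and in 14% of the 27025 genes of the list. For Pgd it lay only in the downstream of the listed windows, after the start given there. TGAGNNNGC was found in 3 members (Srxn1, Taldo1 and Abcc4) and in 19.8% of all genes, and TGANTCAGC in 1 member and 1.37% of all genes. Keap1, Nqo1 and Ephx1 held no match in these windows. A match describes letters only and is not a measured binding site, and these windows leave out more distant elements.

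The libraries used held 36198931 to 46454404 counts. Hepatocyte markers made up 4.83% to 11.6% of the counts in the 10 libraries, but only 0.0132% in control 2 and 0.00754% in HQHF 3, where adipocyte markers made up 1.67% and 1.54%, against 0.0367% or less in the other 10. Those 2 libraries, whose values go against a liver label, were left out of the groups. In them G6pdx stood at 82.6 and 151 CPM (the count of a gene scaled to a common library total) and Ephx1, an abundant liver enzyme, at 14.7 and 21.9 CPM, far from every other library. When all 12 libraries were fitted, none of the 10 members was called in any comparison, 7 genes of all those tested were called in HFD against control, and the G6pdx difference turned to -0.39 in HFD against control and 1.13 in HQHF against HFD on the log2 scale.

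Levels of cell type markers also differed among the 10 libraries used. The summed level of 10 macrophage markers was 93.2 to 141 CPM in control, 280 to 800 CPM in HFD and 97.4 to 147 CPM in HQHF livers, with no marker at 0 in any library. Of these markers 8 rose in HFD against control and 8 fell in HQHF against HFD. Adgre1, also on the list, had means of 27.1 CPM in control, 31.2 CPM in HFD and 30.1 CPM in HQHF livers. The 7 stellate cell markers summed to 82.9 to 89.5 CPM in control, 150 to 631 CPM in HFD and 96.0 to 111 CPM in HQHF livers, and 5 of them rose in HFD, Col1a1 by 4.61 on the log2 scale, and 5 fell in HQHF against HFD. The 6 markers of Kupffer cells, the resident macrophages of the liver, summed to 263 to 348 CPM in control, 181 to 309 CPM in HFD and 293 to 465 CPM in HQHF livers. Of these Timd4, Cd163 and Clec4f fell in HFD, by 1.54, 2.06 and 0.76, and the same 3 rose in HQHF against HFD. With levels scaled by library totals alone, 0 of the 6 were called lower and 1 higher in HFD against control, and 1 was higher in HQHF against HFD. Without HFD 3, 1 was called lower in HFD against control and 2 higher in HQHF against HFD. The 6 cholangiocyte markers, of which Spp1 is also on the macrophage list, summed to 22.8 to 27.9 CPM in control, 19.5 to 372 CPM in HFD and 18.9 to 27.9 CPM in HQHF livers, with Krt19 called higher in HFD and Krt7 lower in HQHF against HFD. The 7 hepatocyte markers found summed to 95797 to 130484 CPM in control, 34253 to 74466 CPM in HFD and 74896 to 106585 CPM in HQHF livers. As a share of counts they made up 8.24% to 11.6% in control, 4.83% to 9.32% in HFD and 6.16% to 9.02% in HQHF livers. These shares overlapped among the groups. With levels scaled by library totals alone, 2 of the 7 were called lower in HFD and 1 higher in HQHF against HFD, beside 4 and 3 in the main fit. HFD 3 had the lowest hepatocyte sum and an adipocyte sum of 260 CPM against at most 28.2 CPM elsewhere, and control 1 had a pancreatic acinar sum of 1947 CPM against at most 18.2 CPM elsewhere. In bulk liver, fewer cells of a type and less RNA per cell cannot be told apart, and the part of cell makeup in the differences below was not tested.

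**Figure D1:**
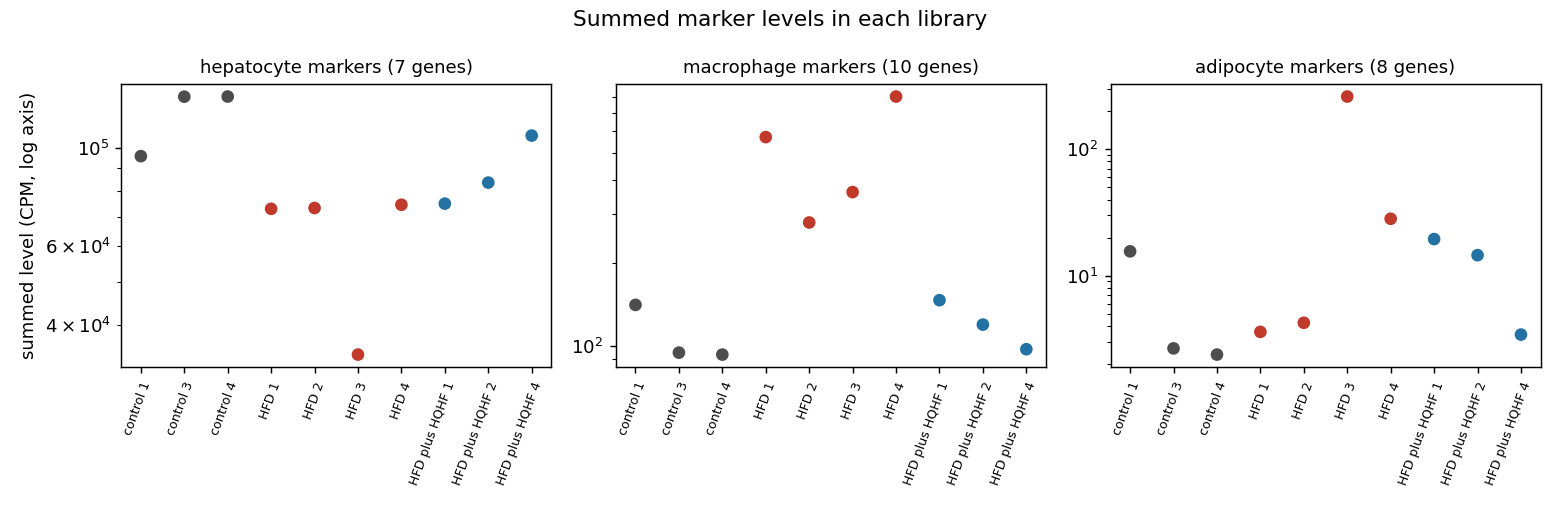
Summed level (CPM, log axis) of the hepatocyte, macrophage and adipocyte markers in each of the 10 libraries, 1 point per library, coloured by group. Macrophage markers ran from 280 to 800 CPM in the 4 HFD livers and stayed at or below 147 CPM in the others. HFD 3 had the lowest hepatocyte and the highest adipocyte sum.

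Of the 10 members, 5 rose in HFD against control (G6pdx, Pgd, Abcc4, Srxn1 and Nqo1) and none fell, and 4 of those 5 (all but Nqo1) fell in HQHF against HFD while none rose. Calls rest on edgeR's quasi-likelihood test with Benjamini-Hochberg adjustment over all tested genes, with a threshold of 0.05. By the same rule 16.3% of all tested genes rose and 9.89% fell in HFD against control, and 7.85% rose and 11.1% fell, 18.9% in all, in HQHF against HFD. The median log2 difference of the members was 0.45 and -0.58 in these comparisons, beside 0.0582 and -0.068 over all tested genes. Because the members were chosen with earlier results known, these counts and medians are no independent test of an excess over all genes. In HFD against control 4 members lay wholly above the control range (20.8% of all tested genes) and 2, Keap1 and Ephx1, wholly below it (15.9%). In HQHF against HFD 5 members lay wholly below the HFD range (17.2% of all tested genes) and none wholly above it (13.5%). No member, and 0% of all genes, was called in HQHF against control, where 1008 genes had an unadjusted p under 0.05 and DESeq2 called 70 genes and no member. The 3 comparisons share libraries, so a high HFD value enters both the first and the second. The labels do not say how the sequenced livers were drawn from the mice of each group, so the p-values measure only the spread between these libraries.

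**Figure D2:**
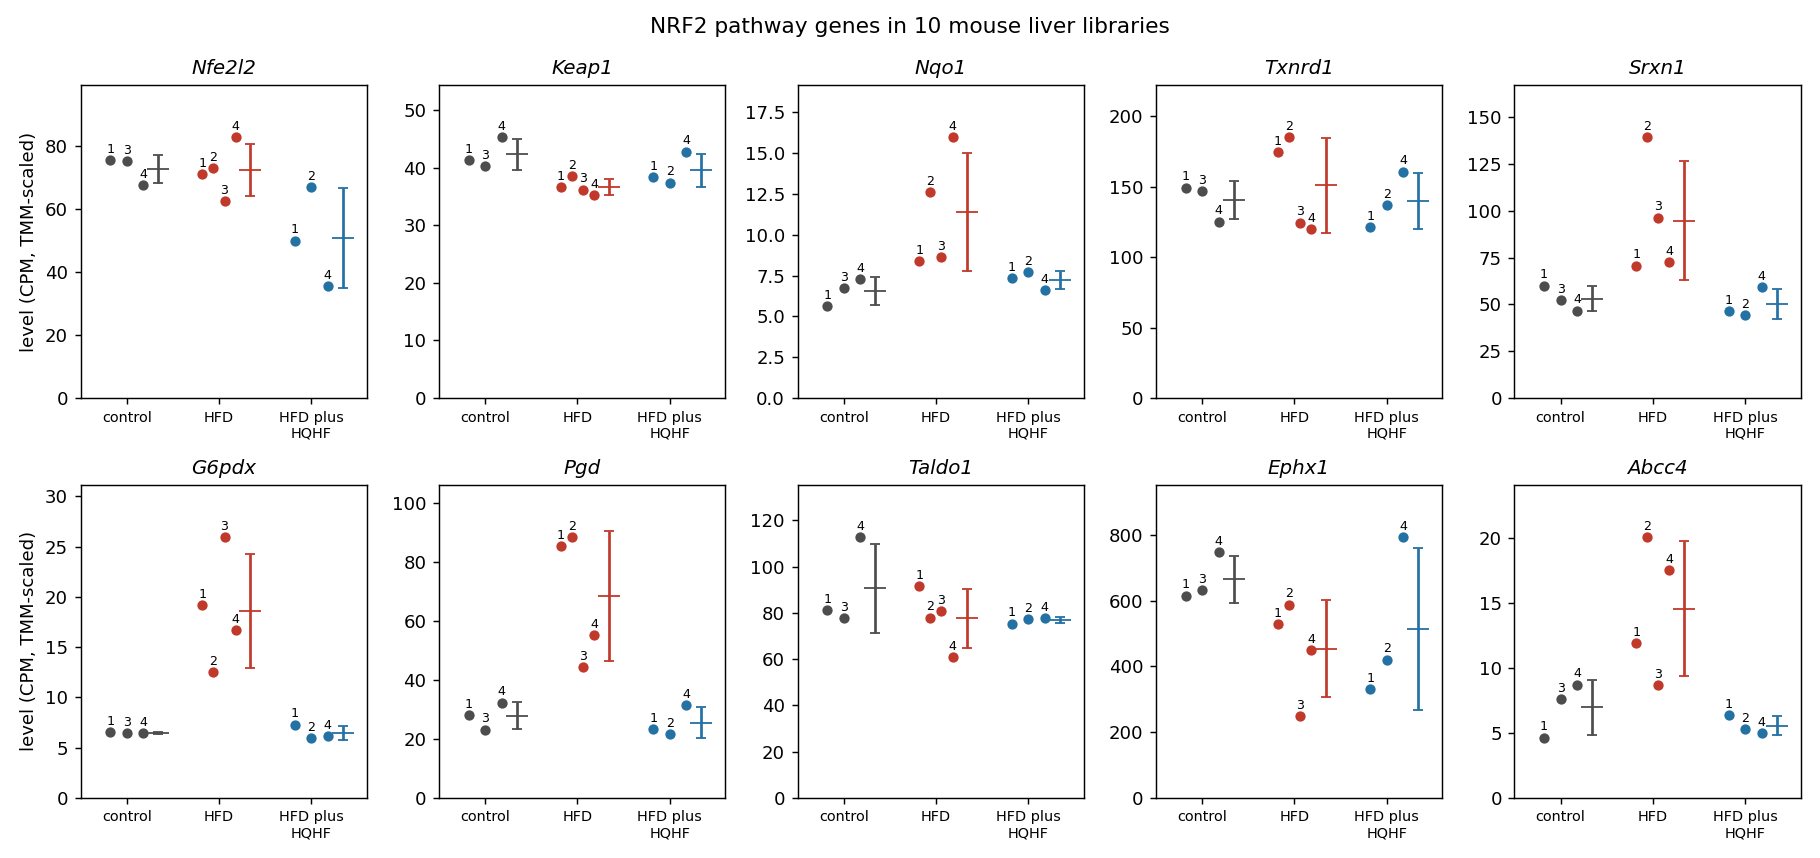
Level (TMM-scaled CPM) of each of the 10 genes in each library, by group. Points are libraries, labelled by replicate number, and the horizontal bar with whiskers is the mean ± SD. All 4 HFD livers lie above all control and HQHF livers for G6pdx, Pgd, Srxn1 and Nqo1.

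The regulators themselves did not pass the test. Nfe2l2, which encodes NRF2, stood at 75.4, 75.1 and 67.5 CPM in the control livers, at 71.1, 72.9, 62.5 and 82.8 CPM in the HFD livers, and at 49.96, 66.9 and 35.4 CPM in HQHF livers 1, 2 and 4. Control and HFD livers overlapped and their difference was -0.01 ± 0.20 (log2 ± SE, adjusted p = 0.982), with a 95% interval from -0.44 to 0.42. The HQHF livers lay below all control livers and, but for HQHF 2, below all HFD livers. The HQHF difference was -0.51 ± 0.20 from HFD (adjusted p = 0.0879) and -0.52 ± 0.21 from control (adjusted p = 0.659). The first was called when HQHF 2 was left out, at -0.75 with an adjusted p of 0.046.

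Keap1, the inhibitor of NRF2, varied least within HFD livers. It stood at 41.4, 40.3 and 45.3 CPM in control, 36.7, 38.5, 36.2 and 35.2 CPM in HFD, and 38.4, 37.5 and 42.8 CPM in HQHF livers. All HFD livers lay below all control livers, a pattern found downward in 15.9% of all tested genes, but the difference of -0.21 ± 0.11 was not called (adjusted p = 0.183). HQHF livers overlapped both other groups. Scaling by library totals alone, which put the median of all genes at 0.657 and -0.616 in HFD against control and HQHF against HFD, turned the Keap1 differences to 0.40 and -0.44 and the Nfe2l2 difference in HFD against control to 0.58.

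The NADPH genes of the oxidative pentose phosphate pathway had the most firmly called changes of the members. G6pdx encodes glucose-6-phosphate dehydrogenase, the enzyme that commits glucose-6-phosphate to this pathway and yields NADPH. Its level was 6.54, 6.41 and 6.41 CPM in control, 19.2, 12.5, 26.0 and 16.7 CPM in HFD, and 7.29, 5.95 and 6.12 CPM in HQHF livers. The lowest HFD liver stood above the highest liver of either other group, and the control livers had a coefficient of variation of 1.17%. G6pdx rose 2.88-fold in HFD against control (log2 1.53 ± 0.23, adjusted p = 0.00323) and fell by 1.53 ± 0.23 in HQHF against HFD (adjusted p = 0.00394). HQHF and control means were 6.45 ± 0.733 and 6.45 ± 0.0755 CPM (SD, n = 3 each), and the 95% interval of their log2 difference ran from -0.52 to 0.51.

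The highest G6pdx level was in HFD 3, the liver with the raised adipocyte sum, and G6pdx was also high in the 2 libraries left out. Without HFD 3 the G6pdx differences were 1.33 (adjusted p = 0.00209) and -1.33 (adjusted p = 0.00257), and the calls held with each of the 10 libraries left out in turn.

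Pgd encodes 6-phosphogluconate dehydrogenase, the other NADPH-yielding step of the pathway. It stood at 28.02, 23.1 and 32.2 CPM in control, 85.4, 88.4, 44.4 and 55.2 CPM in HFD, and 23.4, 21.5 and 31.4 CPM in HQHF livers. HFD 1 and HFD 2 were highest, and HFD 3, the highest for G6pdx, was the lowest HFD liver for Pgd, yet no HFD liver overlapped another group. Pgd rose 2.46-fold in HFD (log2 1.30 ± 0.26, adjusted p = 0.00777) and fell by 1.43 ± 0.26 in HQHF against HFD (adjusted p = 0.00816). With each library left out in turn its calls held, with adjusted p up to 0.0435 and 0.0441.

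Taldo1 encodes transaldolase, which belongs to the non-oxidative branch of the same pathway. It stood at 81.2, 77.8 and 112.9 CPM in control, 91.7, 77.9, 80.6 and 60.7 CPM in HFD, and 75.3, 77.4 and 77.6 CPM in HQHF livers. Control and HFD overlapped, and the difference of -0.22 ± 0.17 was not called (adjusted p = 0.367, 95% interval -0.60 to 0.16). HQHF differed from HFD by -0.02 ± 0.18 (adjusted p = 0.954). The 3 HQHF livers were within a coefficient of variation of 1.66%, and lay just below the lowest control liver.

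Among the thiol reductases, Srxn1 passed the test and Txnrd1 did not. Srxn1 encodes sulfiredoxin, which repairs over-oxidised peroxiredoxins. Its level was 60.0, 52.4 and 46.6 CPM in control, 70.6, 139.3, 96.2 and 72.7 CPM in HFD, and 46.4, 44.4 and 59.4 CPM in HQHF livers. HFD 2 was highest, and the lowest HFD liver was above all livers of both other groups. Srxn1 rose 1.79-fold in HFD against control (log2 0.84 ± 0.24, adjusted p = 0.0275) and fell by 0.92 ± 0.24 in HQHF against HFD (adjusted p = 0.0256). The first call was lost without control 1 (adjusted p = 0.0602), control 3 (0.107) or control 4 (0.0945), and the second without HQHF 1 (0.0997), HQHF 2 (0.102) or control 3 (0.053).

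Txnrd1 encodes the cytosolic thioredoxin reductase, which keeps thioredoxin reduced with NADPH. It stood at 149.3, 146.9 and 125.0 CPM in control, 174.6, 185.0, 124.4 and 119.9 CPM in HFD, and 121.2, 136.9 and 160.6 CPM in HQHF livers. HFD 1 and HFD 2 exceeded every other liver, whereas HFD 4 lay below all control livers and HFD 3 only just below the lowest of them. The group differences were 0.10 ± 0.19 for HFD against control (adjusted p = 0.719, 95% interval -0.32 to 0.53) and -0.11 ± 0.19 for HQHF against HFD (adjusted p = 0.706, interval -0.54 to 0.31).

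Of the detoxifying enzymes, Nqo1 rose with HFD and Ephx1 did not. Nqo1 encodes a quinone reductase and is a widely used readout of NRF2 activity. It stood at 5.65, 6.74 and 7.27 CPM in control, 8.38, 12.6, 8.61 and 16.0 CPM in HFD, and 7.35, 7.72 and 6.62 CPM in HQHF livers. HFD 2 and HFD 4 were well above the rest, HFD 1 and HFD 3 only just above the highest HQHF liver, and the HFD group did not overlap either other group. Nqo1 rose 1.74-fold in HFD (log2 0.80 ± 0.23, adjusted p = 0.0309), and its HQHF difference of -0.66 ± 0.23 from HFD was not called (adjusted p = 0.0684).

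The Nqo1 call in HFD against control was lost without control 1 (adjusted p = 0.109), control 3 (0.0956), control 4 (0.0616), HFD 2 (0.0565) or HFD 4 (0.0624). Without HFD 3 the HQHF difference was called, at -0.77 with an adjusted p of 0.035. The macrophage marker sum was 800 CPM in HFD 4, the highest liver for Nqo1, and 280 CPM in HFD 2, the next highest. It was 570 CPM in HFD 1, the lowest HFD liver for Nqo1. Of the sum in HFD 4, 302 CPM came from Spp1, which is also on the cholangiocyte list. The part of these cells in the Nqo1 values was not tested.

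Ephx1 encodes microsomal epoxide hydrolase, which opens reactive epoxides. It stood at 615.9, 632.2 and 747.6 CPM in control, 529.7, 588.5, 249.4 and 449.1 CPM in HFD, and 330.2, 420.6 and 794.8 CPM in HQHF livers. All HFD livers lay below all control livers, and the lowest, HFD 3, also had the lowest hepatocyte marker sum. The difference of -0.55 ± 0.34 was not called (adjusted p = 0.243, 95% interval -1.29 to 0.19). HQHF livers ran from below 3 of the 4 HFD livers to above all control livers, with a difference of 0.18 ± 0.34 from HFD (adjusted p = 0.732). Scaling by library totals gave 0.031 and -0.35 for these comparisons, where it put the median of all genes at 0.657 and -0.616.

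Abcc4 encodes the export pump MRP4, which carries bile acids and conjugates out of hepatocytes. Its level was 4.62, 7.56 and 8.70 CPM in control, 11.9, 20.1, 8.64 and 17.5 CPM in HFD, and 6.35, 5.27 and 4.97 CPM in HQHF livers. HFD 3 fell just below control 4, so control and HFD overlapped, while every HFD liver stood above every HQHF liver. Abcc4 rose 2.09-fold in HFD (log2 1.06 ± 0.30, adjusted p = 0.0281) and fell by 1.39 ± 0.31 in HQHF against HFD (adjusted p = 0.0149). The first call was lost without control 1 (adjusted p = 0.102), control 3 (0.0827), HFD 2 (0.0549) or HFD 4 (0.0578), and the second without HQHF 1 (0.0519) or HQHF 2 (0.0632).

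**Figure D3:**
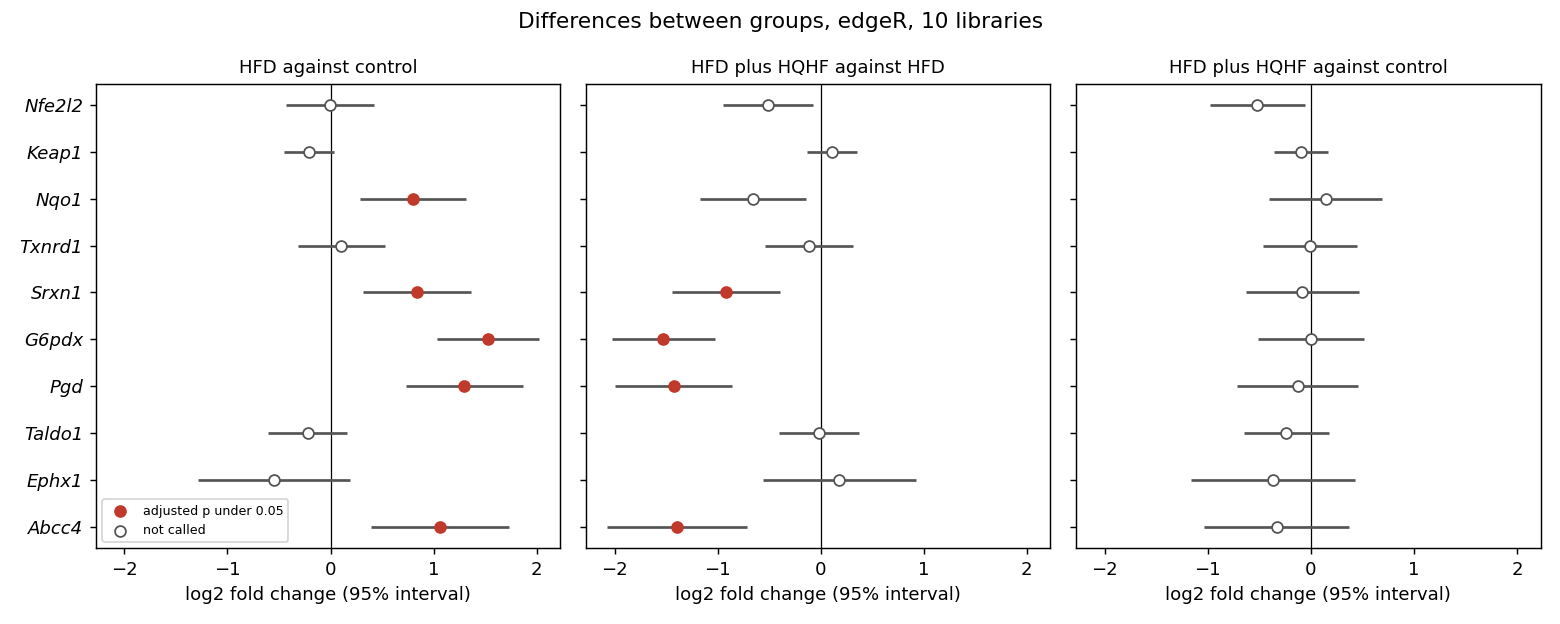
Log2 fold change with its 95% interval for each of the 10 genes in the 3 comparisons (edgeR, 10 libraries), with filled points for an adjusted p under 0.05. Filled points number 5 in HFD against control, all to the right, 4 in HQHF against HFD, all to the left, and 0 in HQHF against control.

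The HFD livers also did not rank alike for the members that rose. HFD 2 was highest for Srxn1, Pgd and Abcc4, HFD 3 for G6pdx and HFD 4 for Nqo1. Within the HFD group the coefficients of variation of these 5 members were 30.4% for G6pdx to 35.8% for Abcc4, and they were 1.17% to 30.2% in the control group. Control and HFD means were 6.96 ± 2.10 and 14.5 ± 5.20 CPM for Abcc4, 53.0 ± 6.69 and 94.7 ± 31.9 CPM for Srxn1, 27.8 ± 4.57 and 68.4 ± 21.9 CPM for Pgd and 6.55 ± 0.827 and 11.4 ± 3.62 CPM for Nqo1 (SD, n = 3 and 4). When only the 2 groups compared were fitted, the HFD against control calls of Nqo1, Srxn1 and Abcc4 were lost (adjusted p = 0.0609, 0.0564 and 0.0566), as was that of Srxn1 in HQHF against HFD (adjusted p = 0.0615).

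In HQHF against control, the members had a median log2 difference of -0.11, beside 0.018 over all genes. The intervals do not show that the groups were alike: for Pgd the interval ran from -0.72 to 0.46, for Srxn1 from -0.63 to 0.47, for Nqo1 from -0.40 to 0.69 and for Abcc4 from -1.04 to 0.37. Nfe2l2 and Taldo1 were lower in all 3 HQHF livers than in all 3 control livers, a separation seen downward in 6.72%, upward in 8.4% and either way in 15.1% of all tested genes.

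Beyond the members, 64 other genes of the pathway in 8 groups by role were all tested. In HFD against control 9 rose and 5 fell, beside 16.3% and 9.89% of all genes, with a median log2 difference of -0.15. In HQHF against HFD 4 rose and 11 fell, beside 7.85% and 11.1%, with a median of -0.02, and in HQHF against control none was called and the median was -0.20. Each role group below holds few genes, and its counts are to be read beside these same shares of all genes. Scaling by library totals gave 21 higher and 0 lower in HFD against control and 0 higher and 25 lower in HQHF against HFD, with the share of higher calls among all called genes moving from 62.3% to 97.9% and from 41.5% to 2.07%. Without HFD 3 the counts were 10 higher and 4 lower, and 5 higher and 12 lower. DESeq2 gave 12 higher and 8 lower in HFD against control and 10 higher and 11 lower in HQHF against HFD, and with all 12 libraries none of the 63 genes then tested was called in either comparison. For genes of these and the later lists, the effect of leaving out a single library is given only for HFD 3. Over all genes, calls in HFD against control numbered 3882 without HFD 3 and 1568 without control 1. Those in HQHF against HFD numbered 3301 without HFD 3 and 633 without HQHF 1. Beside the genes that rose with HFD and fell with HQHF stand the 8 of 10 macrophage markers that were called the same way and 5 of 7 stellate cell markers called in each of those directions, and beside those that fell with HFD stand 3 of 6 Kupffer cell markers that fell in HFD and rose in HQHF against HFD, and 4 of 7 hepatocyte markers that fell in HFD, 3 of which rose in HQHF against HFD. With library totals, 10 macrophage and 6 stellate cell markers were called higher in HFD against control, and 0 Kupffer cell and 2 hepatocyte markers lower. The part of these cells in the pathway values was not tested. Genes called in a role group but named only because the count was small (Maff, Gpx2, Idh1, Ptgr1, Abcc3, Gstm2, Gstm3, Gsta1 and Trim16) were chosen after their values were seen.

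Of 11 regulators and partners of NRF2, 2 rose in HFD, beside 16.3% of all tested genes. They were the small MAF genes Mafk (1.11 ± 0.22, adjusted p = 0.00724) and Maff (1.60 ± 0.45, adjusted p = 0.0267). Mafk stood at 7.33, 6.30 and 9.65 CPM in control and at 15.6, 14.3, 17.5 and 19.4 CPM in HFD livers, without overlap. Cul3, the scaffold of the ligase that KEAP1 serves, differed by -0.30 ± 0.15, Bach1, a repressor that competes at the same elements, by -0.13 ± 0.16, and Mafg by 0.13 ± 0.21, none of them called. In HQHF against HFD edgeR called no regulator and DESeq2 called 3 higher.

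Among 7 genes of glutathione synthesis and reduction, Slc7a11 and Gpx2 rose and Glrx fell in HFD, and each of the 3 was called in the other direction in HQHF against HFD. Slc7a11, the cystine importer, had 195, 324, 31 and 119 reads in the HFD livers, 1, 3 and 0 in control and 0, 0 and 1 in HQHF livers. Its HFD to HQHF ratio from reads pooled by group was 341, with a 95% counting interval from 61.1 to 13503. That interval leaves out the spread between livers. The fitted Slc7a11 differences were 6.28 ± 1.01 in HFD against control (adjusted p = 0.00383) and -8.01 ± 1.18 in HQHF against HFD (adjusted p = 0.00394). The second rests on 1 read in the HQHF livers. Gpx2, a glutathione peroxidase, had 289, 89, 0 and 40 reads in HFD livers and at most 4 in any other liver, so HFD 3 overlapped the other groups (adjusted p = 0.046 and 0.0435). Slc7a11 and Gpx2 passed the filter on low counts only through the HFD livers. A call for either could therefore only be higher in HFD, in both comparisons. Glrx, a glutaredoxin, stood at 66.6, 46.3 and 57.8 CPM in control, 21.3, 21.3, 33.6 and 26.2 CPM in HFD and 47.9, 42.2 and 45.6 CPM in HQHF livers, and differed by -1.15 ± 0.18 (adjusted p = 0.00352) and 0.82 ± 0.18 (adjusted p = 0.0153). With library totals the Glrx values kept their sign at -0.53 and 0.25 but were not called.

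The genes that make glutathione itself were not called. Gclc, the catalytic subunit of glutamate-cysteine ligase, stood at 304, 344 and 303 CPM in control and at 495, 562, 210 and 146 CPM in HFD livers, so that HFD 1 and HFD 2 were above and HFD 3 and HFD 4 below all control livers. Txnrd1 split the same way, but with HFD 3 only just below the lowest control liver. The Gclc difference was 0.16 ± 0.42 (adjusted p = 0.808), and that of Gclm, the modifier subunit, was -0.38 ± 0.19 (adjusted p = 0.162). Gsr, glutathione reductase, differed by -0.30 ± 0.16 (adjusted p = 0.196).

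Among 6 thioredoxin and peroxiredoxin genes 1 fell in HFD and 2 rose in HQHF against HFD. Prdx6, a peroxiredoxin that also acts on phospholipid peroxides, stood at 441, 368 and 437 CPM in control, 272, 236, 246 and 212 CPM in HFD and 388, 445 and 382 CPM in HQHF livers. It fell by 0.78 ± 0.16 (adjusted p = 0.00835) and rose by 0.75 ± 0.16 (adjusted p = 0.0134). Txnrd2, the mitochondrial counterpart of Txnrd1, rose by 0.56 ± 0.14 in HQHF against HFD (adjusted p = 0.0232). With library totals the Prdx6 values were -0.18 and 0.20 and the Txnrd2 value 0.01, none called.

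Of 7 other NADPH supply genes only Idh1, cytosolic isocitrate dehydrogenase, was called, at -0.73 ± 0.23 in HFD (adjusted p = 0.0386), and this call was lost without HFD 3 (-0.68, adjusted p = 0.0648) and with library totals (-0.14, adjusted p = 0.612). Me1, malic enzyme, differed by -0.43 ± 0.41 in HFD against control and -0.63 ± 0.41 in HQHF against HFD, and Tkt, transketolase, by 0.20 ± 0.36 and -0.83 ± 0.37, with no call. G6pdx and Pgd were thus called where Taldo1, Tkt and Me1 were not, a contrast whose difference itself was not tested.

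Of 21 genes of conjugation and carbonyl reduction, Cbr3 and Ptgr1 rose and Mgst1 fell in HFD, beside 16.3% and 9.89% of all tested genes. Cbr3, a carbonyl reductase, stood at 0.499, 0.666 and 0.730 CPM in control, 9.55, 9.04, 2.84 and 5.21 CPM in HFD and 0.632, 0.704 and 0.654 CPM in HQHF livers, with no overlap of HFD with the other groups. It rose by 3.40 ± 0.43 (adjusted p = 0.00154) and fell by 3.32 ± 0.42 (adjusted p = 0.00246). Mgst1, a microsomal glutathione transferase, differed by -1.17 ± 0.29 (adjusted p = 0.016) and 0.97 ± 0.29 (adjusted p = 0.0388), or -0.54 and 0.41 with library totals and not called. In HQHF against HFD, Cbr3, Ptgr1, Gstm2, Gstm3 and Gsta1 fell, the last 3 with adjusted p of 0.0351, 0.0383 and 0.0482. Glutathione transferases of 1 class are close in sequence, and how reads shared among them were counted is not given in the sources used here, so their single values are uncertain.

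The other export pumps behaved unevenly. Abcc1 and Abcc5, pumps of the same family as Abcc4, rose by 1.55 ± 0.22 (adjusted p = 0.00261) and 1.75 ± 0.19 (adjusted p = 0.000932) in HFD and fell by 1.84 ± 0.22 (adjusted p = 0.0021) and 1.63 ± 0.19 (adjusted p = 0.00207) in HQHF against HFD. Abcc5 stood at 2.99, 3.13 and 3.68 CPM in control, 10.05, 10.7, 9.11 and 14.045 CPM in HFD and 3.62, 3.78 and 3.24 CPM in HQHF livers. Abcc3, of the same family, was called lower in HFD at -1.11 ± 0.29 (adjusted p = 0.0201), or -0.50 with library totals and not called.

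Hmox1, haem oxygenase, was the 1 gene called of 5 in haem and iron handling. It stood at 36.3, 32.9 and 26.4 CPM in control, 59.7, 40.9, 56.7 and 42.5 CPM in HFD and 34.5, 23.7 and 25.7 CPM in HQHF livers, and the HFD livers did not overlap the others. It rose by 0.65 ± 0.19 in HFD (adjusted p = 0.033), a call lost without HFD 3 (0.59, adjusted p = 0.0538), and fell by 0.84 ± 0.20 in HQHF against HFD (adjusted p = 0.0177). Of 3 further NRF2-induced genes, only Trim16 was called, lower in HQHF against HFD (-1.99 ± 0.59, adjusted p = 0.0393), and not without HFD 3 (-1.58, adjusted p = 0.0586).

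**Figure D4:**
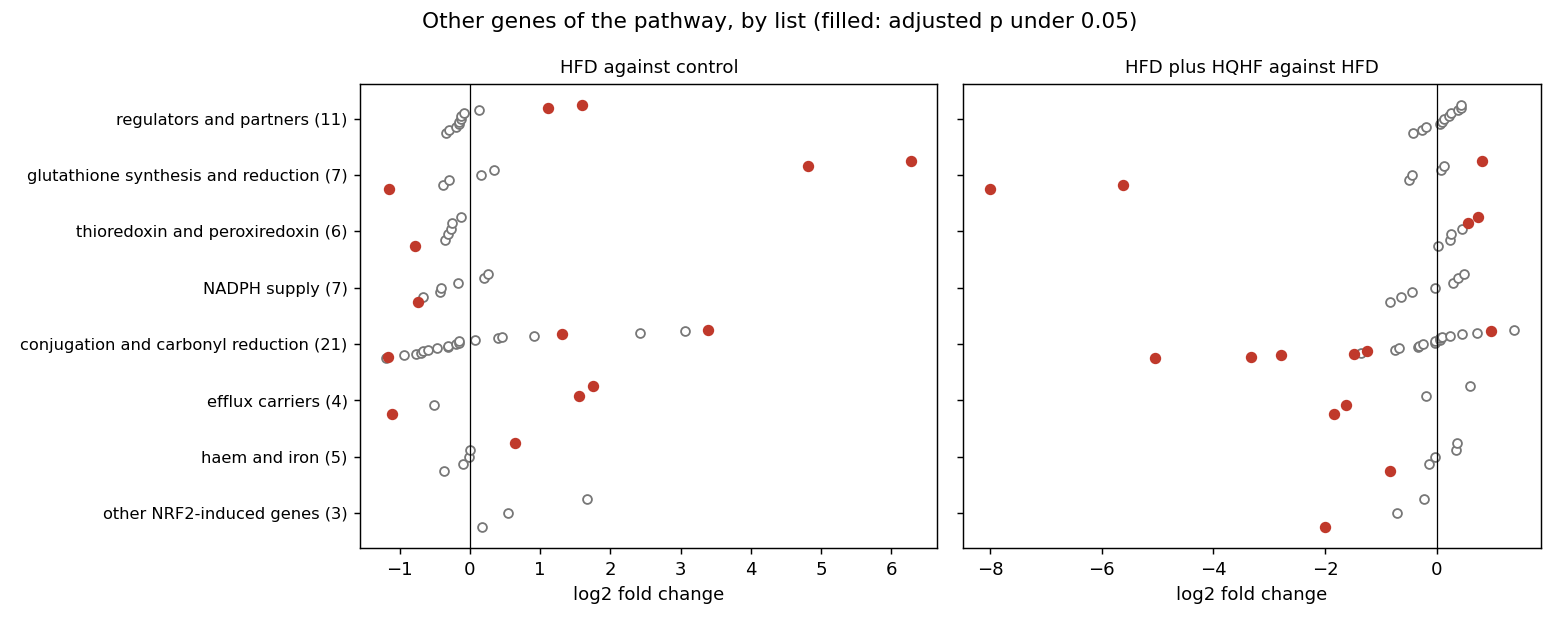
Log2 fold change of 64 further NRF2 pathway genes by role, with the number of genes in brackets, for HFD against control and HQHF against HFD, filled where the adjusted p was under 0.05. The horizontal scales differ, and the leftmost point of the right panel, Slc7a11, is a fitted value that rests on 1 read in the HQHF livers. Filled points lie on both sides of 0 in both panels.

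Lists of genes under other receptors were set beside the pathway because they share targets with NRF2, such as Nqo1 with the aryl hydrocarbon receptor. Of 5 tested genes of that receptor's battery 3 rose in HFD, beside 16.3% of all genes: Cyp1b1 (3.66 ± 0.72, adjusted p = 0.00808), Cyp1a1 (2.02 ± 0.59, adjusted p = 0.0298) and Tiparp (0.55 ± 0.17, adjusted p = 0.0361), and Cyp1b1 fell by 3.19 ± 0.69 in HQHF against HFD (adjusted p = 0.0154). Tiparp was not called without HFD 3 (0.52, adjusted p = 0.0573). Cyp1a1 was low, with means of 0.229 CPM in control and 0.941 CPM in HFD livers. Cyp1a2, the most abundant of the 5, differed by -0.61 ± 0.76 in HFD (adjusted p = 0.583) and Ahrr by 0.15 ± 0.71 (adjusted p = 0.893). The battery summed to 393 to 544 CPM in control, 54.2 to 568 CPM in HFD and 320 to 554 CPM in HQHF livers. Of 5 tested genes under the receptors CAR and PXR, Abcb1a rose by 2.13 ± 0.35 (adjusted p = 0.00383), while Cyp3a11 fell by 2.12 ± 0.48 (adjusted p = 0.0122) and Cyp2b10 fell by 3.72 ± 1.18 (adjusted p = 0.0449).

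G6pdx and Pgd also supply NADPH for lipogenesis, and 2 of 9 lipogenic genes rose in HFD, beside 16.3% of all genes, with a median log2 difference of 0.73: Srebf1, a regulator of lipogenesis, by 2.75 ± 0.73 (adjusted p = 0.0251), and Acly, ATP citrate lyase, by 0.73 ± 0.23 (adjusted p = 0.0397). The summed level of the 9 genes was lower in all HFD than in all control livers, at 5677 to 11256 CPM in control, 801 to 3435 CPM in HFD and 389 to 2878 CPM in HQHF livers. Scd1, stearoyl-CoA desaturase, made up most of that sum in control livers, and its difference of -2.90 ± 1.03 in HFD against control was not called (adjusted p = 0.063), with every HFD liver below every control liver. In HQHF against HFD 1 of the 9 was called lower, beside 11.1% of all genes. Acly fell by 0.88 ± 0.23 in HQHF against HFD (adjusted p = 0.0268). The Fasn difference there, -2.74 ± 0.90, was not called (adjusted p = 0.0595) but was without HFD 3 (-3.05, adjusted p = 0.0398). Whether G6pdx and Pgd moved with the lipogenic or with the NRF2 genes was not tested.

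The genes whose levels followed Nfe2l2 and Nqo1 most closely were sought among 11906 genes with a mean of at least 1 CPM, as the smallest root mean square difference of log2 CPM over the 10 libraries after each gene's own mean was subtracted. For Nfe2l2, whose SD over the libraries was 0.36 on that scale, they were Lrif1 (0.14), Bdp1 (0.16) and Prdm10 (0.17). For Nqo1, with an SD of 0.45, they were Lacc1 (0.15), Rgs12 (0.16) and Cdin1 (0.16). None of the 6 was a member or a listed gene of the pathway.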

How the data were processed

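Long RNA libraries were made from total RNA of mouse liver with a stranded kit that removes ribosomal RNA, per the labels' protocols. The deposited table holds whole-number counts per gene made by the authors, with no normalization. The submitters' processing notes name HISAT2, RSEM and GRCm39, while the sources used here name no counting step, use of strand or annotation release. The small RNA table was not used.

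The 10 genes and all lists were chosen with earlier results of these data known. Counts of 10 libraries, 3 control, 4 HFD and 3 HQHF, were filtered (filterByExpr), scaled by TMM (factors 0.763 to 1.42) and fitted as 1 quasi-likelihood model of 3 group means in edgeR 4.0.16 with limma 3.58.1 under R 4.3.3. The factors split by group, at 1.2 to 1.42 in the HFD libraries and 0.763 to 0.939 in the control and HQHF libraries. Levels are CPM on TMM-scaled totals, the SE of a log2 difference is its size over the square root of F, and p-values were adjusted by Benjamini-Hochberg over 13832 genes. The batch codes differ for every library, which leaves no term for batch in the model. No 2 libraries held identical counts. Same-numbered libraries of different groups deviated together with r from -0.054 to 0.119 over 8 pairs, so numbers were not taken to pair mice.

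Named were the 10 members, 10 fixed pathway genes, in each comparison the 8 called list genes with the smallest p and at least 1 CPM in the higher group, 2 genes of each list of another receptor or of lipogenesis, and the 3 genes most like Nfe2l2 and Nqo1. Likeness used log2 CPM with a prior count of 2. Of 8 hepatocyte markers 1 was not matched. Alternatives were DESeq2 1.42.0, other scalings and filters, all 12 libraries, the compared groups alone, a replicate block and each library left out. The fitting steps were tested on simulated counts in which few genes changed, evenly up and down. That setting does not test the scaling where many genes moved by group. Figures used Python 3.11.15 with matplotlib 3.10.9, numpy 2.4.6 and pandas 2.3.3, and the R package data.table was version 1.17.8.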

Additional observations from a re-analysis of the deposited data

Results flagged for a closer look

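In the 4 HFD livers, no level of the 10 NRF2 pathway genes in a single liver lay far enough from the other 3 to be singled out (Dixon's ratio of that gap to the group's range, at its 95% critical value), and chance would single out about 1 in 20 such groups. Among 44 other named genes 1 was singled out: Cyp2b10, a cytochrome P450 under the receptor CAR, stood at 1.27 CPM in HFD 3 and at 0.0183, 0.202 and 0.206 CPM in HFD 1, 2 and 4. Of 7 cell type marker sums, 2 were singled out, both in HFD 3: the hepatocyte sum of 34253 CPM against 72917 to 74466 CPM in the other HFD livers, and the adipocyte sum of 260 CPM against 3.60 to 28.2 CPM. Without HFD 3 the same number of the 10 genes, 5, was called in HFD against control, and 5 rather than 4 in HQHF against HFD.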

How the results depend on the processing

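The direction of the called differences of G6pdx, Pgd, Srxn1, Nqo1 and Abcc4 held under every alternative run other than all 12 libraries, where G6pdx turned. With all 12 libraries the calls were 7 genes and 0 members in HFD against control, 1 gene and 0 members in HQHF against HFD, and 0 in HQHF against control. There G6pdx was -0.39 in HFD against control and 1.13 in HQHF against HFD, where Taldo1 was 0.91 and Ephx1 -0.16, and in HQHF against control Keap1 was 0.031, Nqo1 -0.19, Txnrd1 0.10, Srxn1 0.095, G6pdx 0.74, Pgd 0.28, Taldo1 0.70 and Abcc4 0.70. These 2 added libraries were almost without hepatocyte markers.

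Scaling by library totals called 7195 genes and 8 members in HFD against control and 6633 genes and 9 members in HQHF against HFD. It turned Nfe2l2 to 0.58, Keap1 to 0.40, Taldo1 to 0.39 and Ephx1 to 0.031 in the first, Keap1 to -0.44 and Ephx1 to -0.35 in the second, and Txnrd1 to 0.036 and G6pdx to 0.044 in HQHF against control, while moving the median of all genes to 0.657, -0.616 and 0.0687. DESeq2 called 70 genes in HQHF against control. It gave Taldo1 0.024 in HQHF against HFD and G6pdx 0.0050 in HQHF against control, RLE scaling gave 0.022 and 0.0068, and fitting only the groups compared gave 0.037 and 0.00045. A filter of 1 CPM in 3 libraries gave Nfe2l2 0.031 in HFD against control and G6pdx 0.0075 in HQHF against control. With only the 2 groups compared, 2 members (G6pdx and Pgd) were called in HFD against control and 1 gene in HQHF against control. Leaving out the filter changed no call of a member.

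With the replicate block, 2 members were called in HFD against control and 3 in HQHF against HFD, 1719 genes were called in HQHF against HFD, and G6pdx was 0.23 in HQHF against control. The block is given as a hint from shared numbers only. Different-numbered pairs deviated together with r from -0.177 to 0.130 over 25 pairs.

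With each of the 10 libraries left out in turn, HFD against control gave 1568 to 3882 genes and 2 to 5 members, HQHF against HFD gave 633 to 3301 genes and 2 to 5 members, and HQHF against control gave 0. The lowest counts came without control 1 and without HQHF 1. Ranges that crossed 0 were, in HFD against control, -0.074 to 0.061 for Nfe2l2 and -0.0051 to 0.20 for Txnrd1, in HQHF against HFD, -0.12 to 0.067 for Taldo1 and -0.27 to 0.43 for Ephx1, and in HQHF against control, -0.12 to 0.083 for Txnrd1, -0.22 to 0.017 for Srxn1 and -0.098 to 0.055 for G6pdx. A lone group of 2 libraries was assumed to vary like the others. The cause of these changes was not tested. Depth limits members little, since the lowest level of any of them was 4.62 CPM in libraries of at least 36198931 counts, whereas 3 or 4 livers per group leave wide intervals.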
